A study of Mus musculus with 4 samples.

Results

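The replication-dependent histone genes were examined in blood CD8+ lymphocytes of mice with tumours. They were taken as every protein-coding gene, listed for both tumour models, whose symbol starts with Hist1h, Hist2h, Hist3h or Hist4h, which gave 67 genes of 53801. The class was read from the symbol, and 6 genes encode the linker histone H1, 18 encode H2A, 18 encode H2B, 12 encode H3 and 13 encode H4. By the GENCODE M21 annotation of GRCm38, the assembly also called mm10, the 54 Hist1 genes lie on chromosome 13, the 10 Hist2 genes on chromosome 3, the 2 Hist3 genes on chromosome 11 and Hist4h4 on chromosome 6. The 3 histone-named pseudogenes were left out.

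The study sequenced RNA of lymphocytes from peripheral blood in 2 mouse tumour models named for B16, a melanoma line, and CT-26, a colon carcinoma line. In each model the cells that bound tumour-reactive MHC multimers (reagents that bind T cells through their antigen receptor) were named CTRL, for circulating tumor-reactive lymphocytes, and the remaining CD8+ lymphocytes were named residual. There was 1 library per group, 4 in all. All 4 are labelled as wild-type primary CD8+ lymphocytes, and the treatment label reads Multimer-binding on all 4, the residual libraries included. Strain, age, tumour stage and the number of mice behind a library are not given in the sources used here. With 1 library per group, ratios within a model have no replicates to be checked against, and intervals cover counting error only.

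Histone H2A, H2B, H3 and H4 form the core around which DNA is wound, and H1 binds the linker DNA between cores. A dividing cell makes most of its new histones during S phase from clustered genes, which usually have no introns and whose messages end in a conserved stem-loop in place of a poly(A) tail. The stem-loop binding protein, encoded by Slbp, holds that end, and the coactivator encoded by Npat drives transcription of the clusters. Some of these genes also give polyadenylated messages in cells that are not in S phase. The library kit named in the labels primes reverse transcription from poly(A) tails, so a level given here is a level of what that kit captured and not of all histone message.

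The stem-loop is shown because it sets how these messages end. It was searched as a run of 16 bases in the annotated transcripts, and 46 of the 67 genes held it. In the other genes a stem-loop past the end of the annotated transcript would have been missed. The form shared by most genes, 26 of them and in 4 classes, is that of Hist1h1c. In all 12 H4 genes with a stem-loop it began with GGCC, as in Hist1h4d, or GGTC, and not with GGCT as in Hist1h1c. A further form was shared by 6 genes, Hist1h3f among them. The other forms, that of Hist1h4i among them, were each found in 1 or 2 genes. The capitals mark the stem-loop and the lower-case letters its flanks, given 5′ to 3′ on the strand of the gene, from GENCODE M21 transcripts.
Hist1h1c: ccaaaaGGCTCTTTTCAGAGCCaccact
Hist1h4d: accaaaGGCCCTTTTCAGGGCCactacc
Hist1h4i: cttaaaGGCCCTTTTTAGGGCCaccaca
Hist1h3f: caaaacGGCTCTTTTAAGAGCCacctcc
In order these capitals stand at chr13:23739512-23739527 on the plus strand, chr13:23581950-23581965 on the plus strand, chr13:22040966-22040981 on the minus strand and chr13:23544932-23544947 on the plus strand. The stem-loop lay 840, 770, 330 and 365 bases before the annotated end of these transcripts.

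The libraries held between 37166063 and 74879891 reads in genes. Haemoglobin genes took 42.0% of the B16 residual reads, 1.28% of the B16 CTRL reads, 10.8% of the CT-26 residual reads and 0.629% of the CT-26 CTRL reads. Genes with 1 to 9 reads numbered 16985 in the B16 residual library and 5880 to 7188 elsewhere. The coreceptor gene Cd8a stood at 1.66 CPM (raw counts scaled to 1000000 reads in genes) in the B16 residual library, 424 in B16 CTRL, 8.78 in CT-26 residual and 734 in CT-26 CTRL. Its low level in the libraries labelled residual goes against their CD8+ label, so every direction below compares a CTRL library with the library labelled residual. In bulk samples fewer cells of a type and less RNA per cell cannot be told apart.

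Histone messages were a small part of each library and were more abundant in both libraries labelled residual. All members together had 11774 reads in B16 residual, 5869 in B16 CTRL, 19289 in CT-26 residual and 10684 in CT-26 CTRL, or 301, 158, 380 and 143 CPM. The CTRL libraries of the 2 models were thus nearest to each other. On the deposited normalized counts, the summed family was 3.42-fold lower in B16 CTRL than in B16 residual (log2 ratio −1.77, 95% counting interval −1.82 to −1.73) and 3.04-fold lower in CT-26 CTRL (−1.61, −1.64 to −1.57). Scaled to total reads in genes instead, which moves every log2 ratio by 0.84 in B16 and by 0.19 in CT-26, these ratios were −0.93 and −1.41.

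A few genes made up most of these reads. Hist1h1c, a linker histone gene, gave 46.8% of the family's reads in B16 residual, 35.5% in B16 CTRL, 62.2% in CT-26 residual and 41.8% in CT-26 CTRL. Hist1h2bc, an H2B gene, gave 23.0%, 7.29%, 5.54% and 1.05% in the same order. Hist1h1c alone was thus the leading histone gene of all 4 libraries, and Hist1h2bc was second by reads in B16 residual alone. Hist1h1e, another H1 gene, gave more reads than Hist1h2bc in the other 3 libraries. Without Hist1h1c the summed ratio was −1.50 in B16 and −0.98 in CT-26, and without Hist1h1c and Hist1h2bc it was −0.86 and −0.78. With both left out and total reads as the scale, the B16 sum was −0.01. By locus, the Hist1 genes summed to log2 ratios of −1.92 and −1.89, and the Hist2 genes to 0.04 (0.89 with total reads) and −0.10. The Hist3 genes stood at −0.82 (0.02 with total reads) and 0.36. Hist4h4, alone in its locus, stood at −1.79 (−0.97 with total reads) and 0.09. The Hist1 sum, which includes Hist1h1c and Hist1h2bc, was thus the only one well below 0 in both models.

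**Figure D1:**
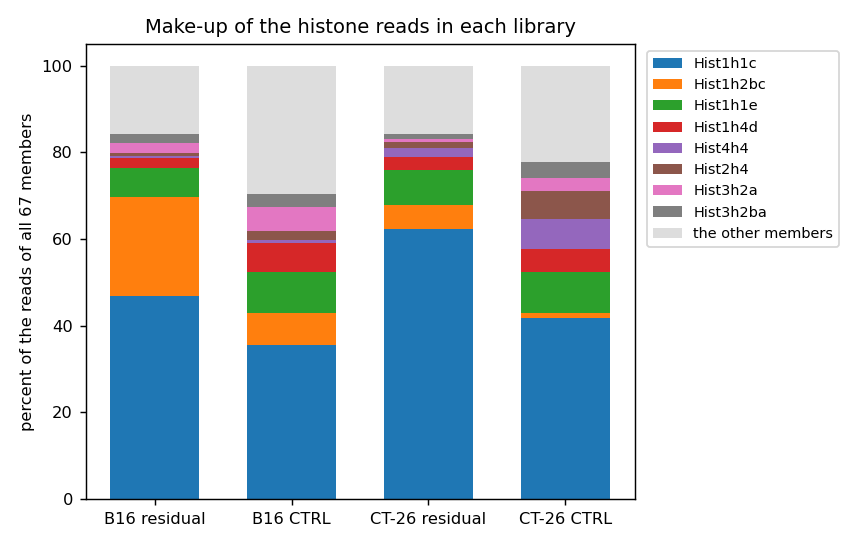
Share of the reads of all 67 histone genes (percent, vertical axis) given by the 8 genes with most reads and by the other members, in each of the 4 libraries (1 bar per library). Hist1h1c fills 35.5% to 62.2% of a bar, and Hist1h2bc 1.05% to 23.0%.

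Most histone genes were at low level. Of the 67 members, 12 had no read in B16 residual, 17 in B16 CTRL, 9 in CT-26 residual and 11 in CT-26 CTRL, and 7 had none in any library. These 7 were Hist1h2aa, Hist1h2ba, Hist2h2aa1, Hist2h2aa2, Hist2h2bb, Hist2h3b and Hist2h3c1, of which Hist1h2aa and Hist1h2ba are known from the testis. A count of 0 allows up to 3 reads, which is 0.0768, 0.0807, 0.0590 and 0.0401 CPM in the order above. Between 19 and 23 members reached 1 CPM in a library, and 5 reached 10 CPM in any library: Hist1h1c, Hist1h1e, Hist1h2bc, Hist1h2be and Hist1h4d. Near-identical copies limit the reading of single members: in 21 of the 67 genes fewer than 30% of the 50-base words of the annotated transcripts were found in no other member.

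A gene was called higher or lower in CTRL where log2((CTRL + 1)/(residual + 1)) of the normalized counts was at least 1 in size and the higher library reached 1 CPM. In B16, 28 members reached that level, of which 11 were lower, 2 higher and 15 neither. Of all 14724 genes at that level in B16, 18.8% were lower and 25.3% higher, against 39.3% and 7.14% of the members at level. In CT-26, 25 members reached the level, of which 12 were lower, 2 higher and 11 neither. Of all 14409 genes at that level in CT-26, 22.4% were lower and 14.9% higher, against 48% and 8% of the members. The split leaned towards the library labelled residual in both models, more than over all genes. In B16 the counts depended on the scale: with total reads in genes 6 of the 28 members were lower and 7 higher. Of all genes 11.6% were then lower and 55.9% higher. In CT-26 10 of the 25 were lower and 2 higher, where 20.4% and 20.3% of all genes were. On either scale a larger share of the members than of all genes was lower, and a smaller share higher.

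Of the 22 members at level in both models, 5 were lower in both, namely Hist1h1b, Hist1h1c, Hist1h1e, Hist1h2bc and Hist1h4i. That is 22.7% of those members, beside 10.6% of all 13315 genes at level in both. Only Hist1h3f was higher in both, which is 4.55% of those members beside 7.96% of all genes. No member was called in opposite directions, beside 2.97% of all genes. With total reads as the scale 3 members remained lower in both, Hist1h1c, Hist1h2bc and Hist1h4i. Hist1h3e joined Hist1h3f as higher in both on that scale, while Hist1h2bg and Hist2h2be were then higher in B16 and lower in CT-26. Whether any member differed between the models was not tested.

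Over the members with any read in the model, whatever their level, the median log2 ratio was −1.12 in B16 (58 members) and −1.16 in CT-26 (60 members). Over all genes with a read it was −1.21 in B16 and 0.07 in CT-26, and over protein-coding genes with a read, as all members are, it was −0.47 and 0.14. The histone median in B16 thus lay near that of all genes and below that of protein-coding genes, and in CT-26 it lay below both. With genes at 0 in 1 library set to their bound (3 reads for that library) the histone medians were −1.03 and −1.16.

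**Figure D2:**
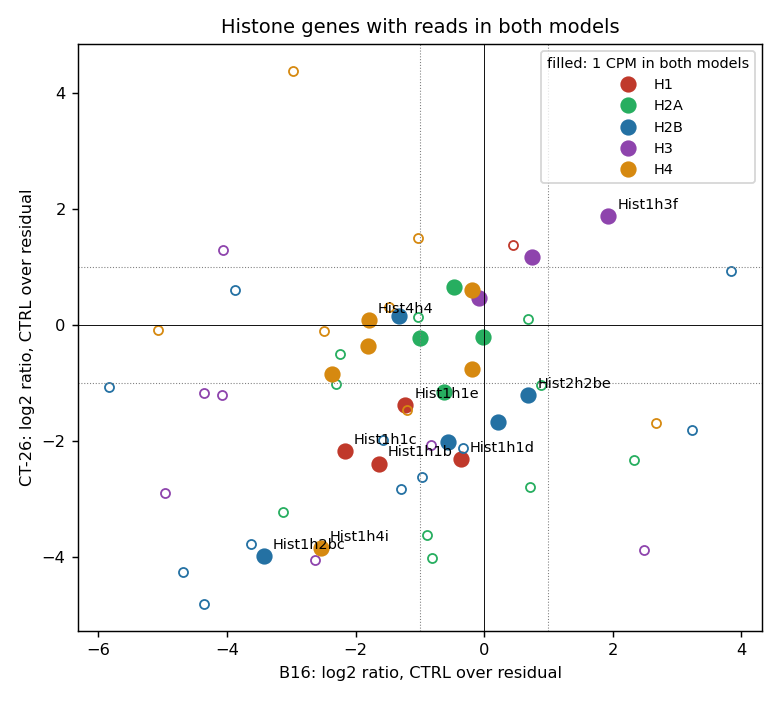
Log2 ratio of normalized counts plus 1, CTRL over residual, in B16 (horizontal axis) and in CT-26 (vertical axis) for the 58 histone genes with reads in both models, coloured by class. Filled points are the 22 genes that reached 1 CPM in both models and open points the others; Hist1h1c, Hist1h2bc and Hist1h4i lie low on both axes and Hist1h3f high on both.

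The linker histone genes were lower in both CTRL libraries as a class. Their reads summed to 165 CPM in B16 residual, 76.6 in B16 CTRL, 276 in CT-26 residual and 75.8 in CT-26 CTRL, and the log2 ratio of the normalized sums was −1.95 (−2.01 to −1.88) in B16 and −2.06 (−2.10 to −2.01) in CT-26. Hist1h1c had 5506 reads in B16 residual, 2085 in B16 CTRL, 12001 in CT-26 residual and 4467 in CT-26 CTRL. The residual library was the higher of each pair, by 4.50-fold in B16 (−2.17, −2.25 to −2.10) and 4.53-fold in CT-26 (−2.18, −2.23 to −2.13). These log2 ratios were nearly the same in the 2 models, and each stayed below −1 with total reads as the scale (−1.33 and −1.98).

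The other somatic H1 genes were less abundant. Hist1h1e had 777, 565, 1587 and 1024 reads in the same order, with log2 ratios of −1.23 (−1.39 to −1.07) and −1.38 (−1.50 to −1.27), but its B16 value was −0.39 with total reads. It shares exon sequence on the same strand with Hist1h2be, so reads of the 2 genes may have been split or set aside. Hist1h1d had 86, 114, 314 and 105 reads, and was called lower only in CT-26 (−2.32, −2.67 to −2.01), with −0.36 (−0.78 to 0.06) in B16, which turned to 0.47 with total reads. Hist1h1b had 40, 21, 100 and 31 reads and log2 ratios of −1.64 and −2.39. Hist1h1a had 26, 61, 10 and 46 reads, more in CTRL than in residual in both models, with 0.45 in B16, where it was not called, and 1.38 in CT-26, where neither library reached 1 CPM. The testis gene Hist1h1t had at most 4 reads in a library. Without Hist1h1c the H1 sums still gave −1.06 in B16 and −1.49 in CT-26, the B16 value being −0.22 with total reads.

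The H2A genes, which encode the core histone paired with H2B, differed little in their sums. These were 14.5, 19.7, 11.3 and 9.99 CPM. The log2 ratios of the sums were −0.40 (−0.56 to −0.24) in B16 and −0.37 (−0.53 to −0.21) in CT-26, the B16 value turning to 0.44 with total reads. Over members with reads the median log2 ratio was −0.72 in B16 (10 negative, 4 positive) and −1.02 in CT-26 (11 negative, 4 positive). Of the 18 genes, 13 in B16 and 14 in CT-26 were below 1 CPM in both libraries of the model. Hist3h2a had 269, 332, 119 and 318 reads, with log2 ratios of −0.47 in B16 (0.37 with total reads) and 0.66 in CT-26. Hist1h2ac had 78, 131, 104 and 152 reads, and its log2 ratios were −0.02 (−0.44 to 0.40) and −0.20 (−0.57 to 0.17), with 0.81 in B16 on total reads. Neither gene was called in either model. Hist2h2ac, with 44, 37, 114 and 164 reads, stood at −0.995 in B16, just short of the limit, and at −0.23 in CT-26. Among the H2A genes 1 was called, Hist1h2ae, which was lower in CT-26 with 84 and 63 reads (−1.15), and it was not called with total reads as the scale. All 18 H2A genes overlap another annotated gene on either strand, and the sources used here do not state whether counting used strand.

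The H2B genes were lower in both CTRL libraries as a class, and Hist1h2bc had the most reads among them in the libraries labelled residual. They summed to 86.4, 30.4, 47.5 and 14.4 CPM, with log2 ratios of −2.35 (−2.45 to −2.25) in B16 and −1.91 (−2.02 to −1.81) in CT-26. Without Hist1h2bc the sums gave −0.71 in B16, which turned to 0.14 with total reads, and −1.23 in CT-26 (−1.03 with total reads). Hist1h2bc had 2705 reads in B16 residual, 428 in B16 CTRL, 1069 in CT-26 residual and 112 in CT-26 CTRL. It was 10.8-fold lower in B16 CTRL (−3.43, −3.58 to −3.28) and 16.1-fold lower in CT-26 CTRL (−3.99, −4.30 to −3.73), and it stayed low with total reads (−2.59 and −3.80). It had the lowest log2 ratio of the 22 members at level in both models, in each model. Its annotated transcript has 2 exons that span chr13:23684199-23692908 on the plus strand, and it holds no stem-loop. Neither trait is particular to it. In all, 21 of the 67 members hold no stem-loop in the annotated transcript, though a stem-loop past the annotated end would have been missed. Hist1h2be, Hist1h2bp, Hist1h2bq and Hist1h2br also have multiple annotated exons.

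The other H2B genes divided between the models. Hist3h2ba had 246, 166, 207 and 388 reads, with −1.33 in B16 (−0.49 with total reads) and 0.15 in CT-26. Hist1h2be had 68, 78, 518 and 213 reads, with −0.56 in B16 (0.27 with total reads) and −2.03 in CT-26. Hist2h2be had 83, 229, 311 and 225 reads, with 0.69 in B16 and −1.22 in CT-26. Thus the first of these was called lower in B16 alone and the others in CT-26 alone. Several B16 values rested on 1 read in a library. Hist1h2bj had 76 and 1 reads (−5.83, −12.3 to −4.50) and Hist1h2bh had 1 and 42 reads (3.85, 2.07 to 9.96), whereas in CT-26 they had 38 and 30 reads and 9 and 30 reads and neither reached 1 CPM. Hist1h2bb had 34, 1, 71 and 5 reads and was called lower in CT-26 (−4.26, −6.25 to −3.29). Hist1h2bk had 15 and 21 reads in the residual libraries and none in the CTRL libraries, which makes it at least 8.53-fold lower in B16 and at least 11.8-fold lower in CT-26, at levels below 1 CPM.

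The H3 genes held the members called higher in CTRL in both models or in CT-26. As a class they summed to 5.14, 9.44, 6.30 and 7.91 CPM, with log2 ratios of 0.03 (−0.22 to 0.29) and 0.13 (−0.06 to 0.34), and 0.88 in B16 with total reads. Single members mostly went the other way. Over members with reads the median log2 ratio was −1.73 in B16 (7 negative, 3 positive) and −1.19 in CT-26 (6 negative, 4 positive). Of the 12 genes, 9 in B16 and 8 in CT-26 were below 1 CPM in both libraries of the model. Hist1h3f had 18 reads in B16 residual, 121 in B16 CTRL, 40 in CT-26 residual and 252 in CT-26 CTRL. It was 3.94-fold higher in B16 CTRL (1.93, 1.26 to 2.78) and 3.74-fold higher in CT-26 CTRL (1.88, 1.42 to 2.42). Hist1h3e, another H3 gene of the Hist1 locus, had 47, 135, 40 and 153 reads, with 0.74 (0.26 to 1.26) in B16 and 1.17 (0.67 to 1.72) in CT-26. Both genes had more reads in each CTRL library than in its residual library, but 26.6% of the words of Hist1h3e and 50.7% of those of Hist1h3f are found in no other member, so reads may be shared among H3 copies. Hist1h3a had 47, 76, 45 and 105 reads and log2 ratios of −0.08 (0.75 with total reads) and 0.46. Hist1h3i was called lower in CT-26 with 68 and 50 reads (−1.18), but not with total reads as the scale. In B16 it had 15 and 0 reads.

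The H4 genes were lower in B16 CTRL and less far from even in CT-26, by an amount that depended on the scale. They summed to 30.6, 21.8, 38.7 and 34.5 CPM, with log2 ratios of −1.33 (−1.46 to −1.20) in B16 and −0.36 (−0.44 to −0.27) in CT-26, which were −0.49 and −0.17 with total reads. Hist1h4i was the exception that was lower in both, with 328, 95, 302 and 34 reads, 5.89-fold in B16 (−2.54, −2.90 to −2.22) and 14.97-fold in CT-26 (−3.85, −4.46 to −3.39). Hist1h4d had 264, 393, 557 and 554 reads, with −0.20 in B16 (0.64 with total reads) and −0.76 in CT-26, and was not called. Hist4h4, the single gene of its locus, had 71, 34, 410 and 734 reads, and was lower in B16 (−1.79, −2.47 to −1.22; −0.97 with total reads) but even in CT-26 (0.09, −0.09 to 0.27). Its CPM was also higher in both CT-26 libraries (8.07 and 9.80) than in both B16 libraries (1.82 and 0.915). Hist2h4 showed the same order, with 5.43 and 9.46 CPM in CT-26 and 2.07 and 3.26 CPM in B16, and log2 ratios of −0.19 in B16 (0.64 with total reads) and 0.60 in CT-26. The models were normalized separately, so these levels are raw CPM and were not tested. Hist1h4c, Hist1h4h and Hist1h4m were lower in B16 alone, at −1.80, −2.36 and −2.48, and Hist1h4c was not called with total reads as the scale. Hist1h4n had 25 and 0 reads in B16, at least 14.2-fold lower, and 84 and 134 reads in CT-26.

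**Figure D3:**
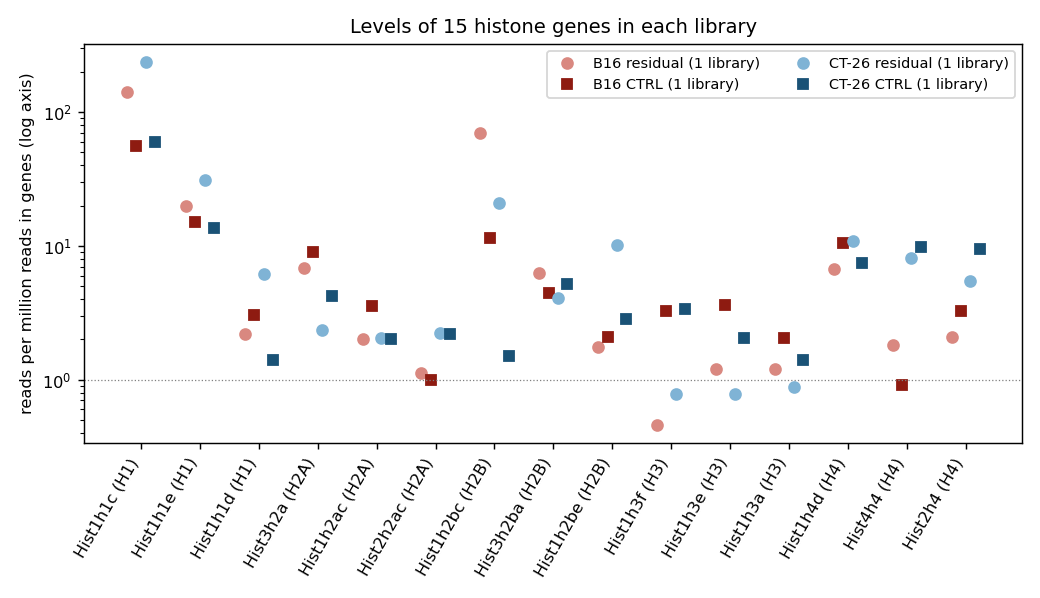
Level of 15 histone genes, grouped by class, in each of the 4 libraries in CPM (log axis; 1 point per library; the dotted line is 1 CPM). For Hist1h1c and Hist1h2bc the residual point is above the CTRL point in both models, and for Hist1h3f it is below.

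Per length the order of the genes differed between libraries. Hist1h1c stood at 90.3 CPM per kb of exon in B16 residual, 36.0 in B16 CTRL, 151 in CT-26 residual and 38.2 in CT-26 CTRL, the highest member in every library. Hist1h2bc, at 59.9, 9.96, 18.2 and 1.29 CPM per kb, was second in 3 libraries and not in CT-26 CTRL. Hist1h4d reached 5.94, 9.29, 9.63 and 6.50, and Hist3h2ba 10.3, 7.27, 6.63 and 8.44. In the CT-26 CTRL library the second place was held by Hist3h2ba.

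Many H2A and H2B genes stand head to head, with their starts a short way apart and their promoters between them. The annotation gave 12 such pairs, with starts 176 to 306 bases apart, and 11 of them had reads. The pair Hist1h2ac and Hist1h2bc was the most unlike among those with both genes at 1 CPM in both models: the H2B gene stood at −3.43 in B16 and −3.99 in CT-26, and the H2A gene at −0.02 and −0.20. In the pair Hist2h2ac and Hist2h2be the log2 ratios were −0.995 and 0.69 in B16, and −0.23 and −1.22 in CT-26. In the pair Hist1h2ae and Hist1h2bg they were −0.63 and 0.21 in B16, and −1.15 and −1.67 in CT-26. The H2B gene was thus the lower of the pair in CT-26 in all 3 such pairs, and in B16 in 1 of them. Over the 11 pairs, levels below 1 CPM included, the H2A ratio was above the H2B ratio in 7 pairs in B16 and in 7 in CT-26.

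**Figure D4:**
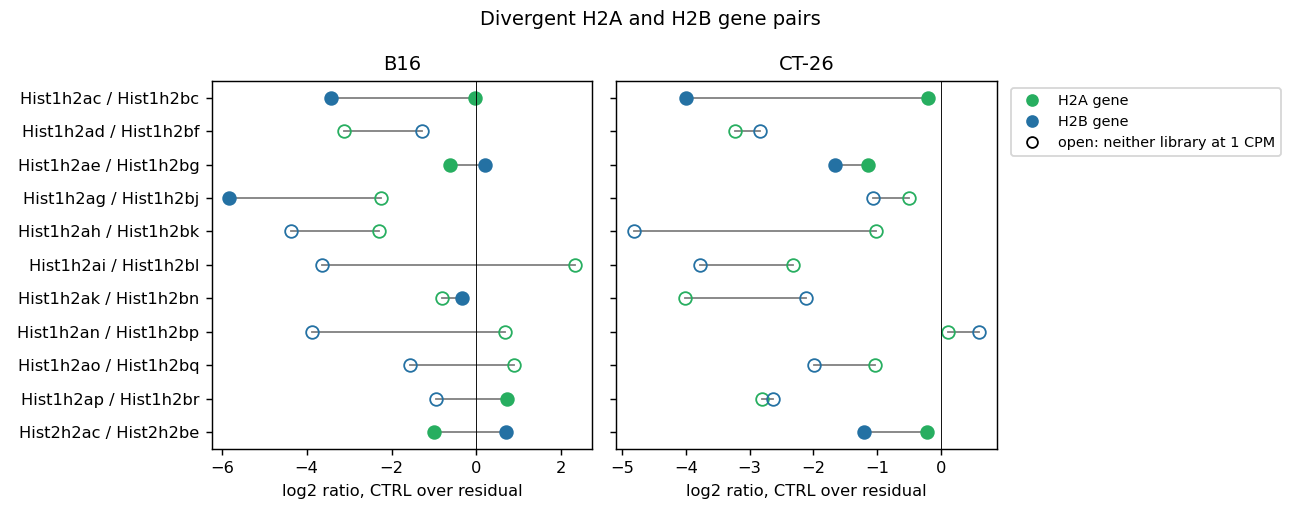
Log2 ratio, CTRL over residual, of normalized counts plus 1 for the H2A gene and the H2B gene of the 11 divergent pairs with reads, in B16 (left) and CT-26 (right). Filled points reached 1 CPM in the model and open points did not; the line joining Hist1h2ac and Hist1h2bc spans from −0.02 to −3.43 in B16 and from −0.20 to −3.99 in CT-26.

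The promoter windows of Hist1h2ac, from the pair with unlike ratios, and of the leading H1 gene are shown for the motifs they hold. RefSeq windows on GRCm38 run from upstream of a gene's start to shortly past it, 300 bases in all. Of the 67 members 62 matched one, and Hist1h2bc did not, so it is not in the counts below. The search on both strands was for CCAAT, which is found in many promoters, for the TATA box TATAAA, for the octamer ATTTGCAT of H2A and H2B promoters, and for AAACACA, an element of H1 promoters. Capitals mark a match on either strand, and a match on the other strand reads as the reverse complement, such as ATTGG for CCAAT. The Hist1h2ac window lies at chr13:23683910-23684209 on the minus strand and spans the interval up to the start of Hist1h2bc. The Hist1h1c window lies at chr13:23738557-23738856 on the plus strand.
Hist1h2ac: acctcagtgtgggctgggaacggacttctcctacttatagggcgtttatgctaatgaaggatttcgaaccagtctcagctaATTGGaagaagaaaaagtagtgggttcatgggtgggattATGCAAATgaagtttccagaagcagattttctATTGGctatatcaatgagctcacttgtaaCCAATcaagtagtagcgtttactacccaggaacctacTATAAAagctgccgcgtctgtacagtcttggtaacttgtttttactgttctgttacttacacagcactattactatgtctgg
Hist1h1c: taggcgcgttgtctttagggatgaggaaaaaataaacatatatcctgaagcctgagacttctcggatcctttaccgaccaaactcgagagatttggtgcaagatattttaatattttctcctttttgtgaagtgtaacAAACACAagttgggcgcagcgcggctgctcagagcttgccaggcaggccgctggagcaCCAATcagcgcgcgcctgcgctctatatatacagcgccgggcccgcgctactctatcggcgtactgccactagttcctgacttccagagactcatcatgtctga
The first holds the octamer, CCAAT on both strands and TATAAA, and the second holds AAACACA and CCAAT. The first of the motifs, CCAAT, was present in 53 of the 62 member windows, against 37.4% of all 32851 windows, and in 3 of 12 H4 windows. TATAAA was present in 35 of 62, against 13.6%. The octamer was present in 7 of 18 H2A and 6 of 16 H2B windows and in no window of another class, against 1.74% of all. AAACACA was present in 5 of 6 H1 windows, against 7.18% of all. A divergent pair shares part of its windows, so these counts are not of separate sequences, and a match describes letters and not binding.

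The members also differed in how far the annotated transcript runs past the stem-loop. In 23 genes it runs over 100 bases past it, in 23 it ends within 100 bases, and in 21 the annotated transcript holds none. The first of these groups gave 69.4% of the family's reads in B16 residual, 80.3% in B16 CTRL, 87.4% in CT-26 residual and 89.0% in CT-26 CTRL, and the genes that end near the stem-loop gave 5.30%, 5.15%, 3.74% and 6.13%. Per length the median member running past the stem-loop stood at 0.804, 1.997, 1.09 and 1.08 CPM per kb, and the median member ending near it at 0.797, 0.0581, 0.666 and 0.131. These medians lay close together in the libraries labelled residual and far apart in the CTRL libraries. The median log2 ratio over members with reads was −0.63 in B16 and −0.06 in CT-26 for the first group, and −2.36 and −1.47 for the second. The sums of the same genes did not keep that order in CT-26 unless Hist1h1c was left out: they gave −1.57 in B16 and −1.58 in CT-26 for the first group (−0.79 and −0.70 without Hist1h1c), and −1.82 and −0.89 for the second. Genes of the second group mostly had few reads: 17 of its 23 members in B16 and 18 in CT-26 were below 1 CPM in both libraries of the model. Whether the reads came from polyadenylated messages was not tested.

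**Figure D5:**
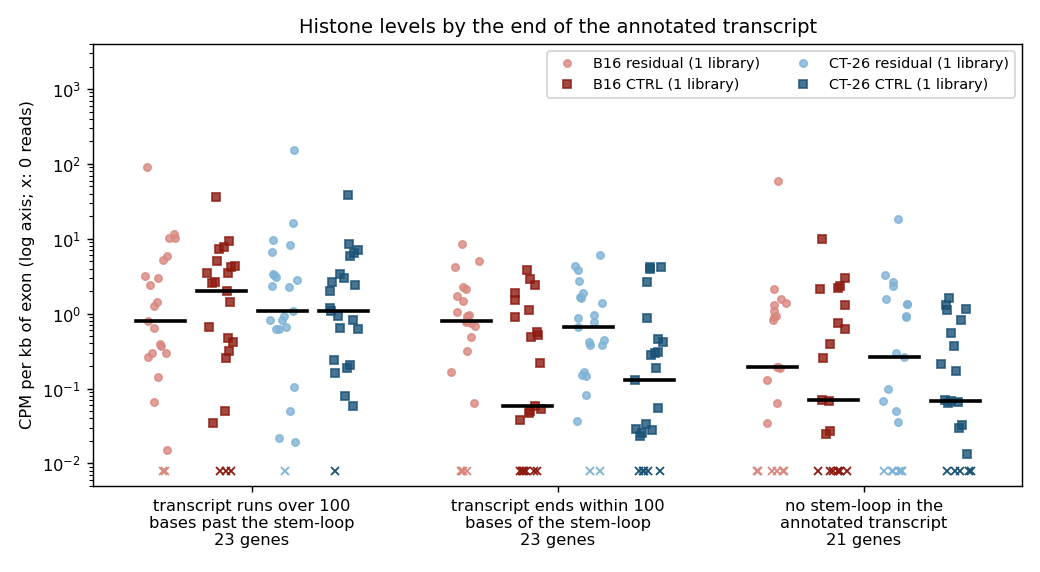
Level in CPM per kb of exon (log axis) of each histone gene in each library, by how the annotated transcript ends; crosses at the bottom are genes with 0 reads and black bars are medians over the genes of a group, zeros included. For genes that end within 100 bases of the stem-loop the medians are 0.797 and 0.666 in the residual libraries and 0.0581 and 0.131 in the CTRL libraries.

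Genes known to give polyadenylated messages in human cells, of which 12 were matched by symbol in the mouse tables, took 78.0%, 60.8%, 75.1% and 61.6% of the family's reads. Whether the mouse genes with these symbols give such messages was not tested. In each model 9 of these 12 reached 1 CPM, of which 5 were lower in B16 CTRL (55.6%, beside 18.8% of all genes) and 4 in CT-26 CTRL (44.4%, beside 22.4%), and none was higher. Their sums were lower in CTRL by log2 ratios of −2.13 and −1.89, and those of the other 55 members by −0.94 and −0.98, the B16 value of the latter being −0.10 with total reads. Hist1h1c and Hist1h2bc carried the first of these sums: the other 10 genes of the list gave −0.66 (0.19 with total reads) and −0.25, on the normalized counts nearer to 0 than the 55 members outside it.

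The models are the only repeat of the contrast, and a fit over all 4 libraries with model and population as terms leaves 1 residual degree of freedom. With edgeR's quasi-likelihood test and Benjamini-Hochberg adjustment, 0 of the 43 members in the fit and 0 of 18749 genes, or 0%, reached an adjusted p of 0.05. At an unadjusted p under 0.05 there were 7 of the 43 members, all lower in CTRL, and 2998 genes, or 16%, which is close to the share of members. The smallest adjusted p of a member was 0.184, for Hist1h2bc (log2 fold change −3.87, lower in 2 of 2 models). DESeq2 gave 44 members an adjusted p and called 4, Hist1h1c, Hist1h2bb, Hist1h2bc and Hist1h4i, all lower in CTRL. It called 1799 of 19887 genes, or 9.05%, close to the share of members. At an unadjusted p under 0.05 DESeq2 gave 9 of 60 members, all lower, and 9.62% of 40101 genes. The DESeq2 adjusted p was 9.98e-10 for Hist1h2bc and 4.02e-04 for Hist1h1c.

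The genes that make and process histone messages were called higher about as often as all genes. Of 22 such genes, 6 were higher (27.3%, beside 25.3% of all genes) and 1 lower (4.55%, beside 18.8%) in B16 CTRL. In CT-26 CTRL 3 were higher (13.6%, beside 14.9%) and 1 lower (4.55%, beside 22.4%). The median log2 ratios were 0.60 and 0.48. Slbp had 1859, 5419, 5918 and 7813 reads (0.77 and −0.35, not called). Npat had 402, 1243, 1030 and 4358 reads and was called higher in CT-26 (0.86 and 1.33). Of 21 histone chaperone genes, whose products carry histones to and from DNA, 8 were higher (38.1%) and 1 lower (4.76%) in B16, and 3 were higher (14.3%) and none lower in CT-26. Their median log2 ratios were 0.54 and 0.43.

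Of 30 S phase genes 12 were higher (40%, beside 25.3% of all genes) and 2 lower (6.67%, beside 18.8%) in B16 CTRL. In CT-26 CTRL 7 were higher (23.3%, beside 14.9%) and 1 lower (3.33%, beside 22.4%). The medians of these genes were 0.79 and 0.50. Mcm7, a subunit of the replicative helicase, had 968, 4100, 3002 and 10483 reads and was higher in both (1.31 and 1.05). Of 23 genes of G2 and M phase 21 reached 1 CPM in each model. Of these, 6 were higher (28.6%) and 7 lower (33.3%) in B16, and 1 was higher (4.76%) and 12 lower (57.1%) in CT-26, with medians of 0.24 and −1.10 over the list. Mki67, a marker of cycling cells, had 2001, 296, 922 and 633 reads and was lower in both CTRL libraries (−3.52 and −1.29). Ube2c, which acts in mitotic exit, was lower in both with 7311, 280, 898 and 211 reads (−5.47 and −2.83). Top2a, a topoisomerase of dividing cells, was not called, with 394, 746, 742 and 1108 reads (0.15 and −0.17). With total reads as the scale each B16 ratio is 0.84 higher, which leaves the positive B16 medians of these lists positive.

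Of 13 replication-independent histone genes, which are expressed outside S phase, 10 reached 1 CPM in each model. None of these was higher in either model, 1 was lower in B16 (10%, beside 18.8% of all genes) and 4 were lower in CT-26 (40%, beside 22.4%), with medians of −0.49 and −0.98 over the list. The B16 median of this list, and the B16 ratio of H1f0, turn positive with total reads. H1f0, a linker histone of resting cells, had 954, 1035, 3188 and 1356 reads (−0.65 and −1.99) and was called lower in CT-26. H2afx, whose product is phosphorylated at DNA breaks, had 717, 2032, 1651 and 2935 reads (0.73 and 0.08). H3f3b, which encodes the H3.3 variant, had 72993, 80632, 153029 and 126807 reads, more in each library than all 67 replication-dependent genes together.

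Marker sums of other blood cells went only in part the same way as the histone sums. The 16 erythroid markers summed to 431755 CPM in B16 residual, 13615 in B16 CTRL, 110292 in CT-26 residual and 6582 in CT-26 CTRL, and the 13 platelet markers to 860, 138, 171 and 31.3 CPM. The 14 neutrophil markers summed to 10592, 421, 11335 and 139 CPM, and the 12 monocyte markers to 5433, 3681, 11757 and 455 CPM. The 11 NK cell markers summed to 1225, 685, 3156 and 499 CPM. All 5 of these sums were higher in the libraries labelled residual, as the histone sums were. The 13 T cell markers summed to 816, 4349, 2509 and 8552 CPM, higher in CTRL. The 15 B cell markers went opposite ways, with 1086 and 8968 CPM in B16 and 1192 and 403 CPM in CT-26. In B16 CTRL the B cell sum stood above the T cell sum, which goes against a library of CD8+ lymphocytes alone. In CPM the plasma cell, dendritic cell and progenitor sums were also higher in B16 CTRL, progenitors by little, and lower in CT-26 CTRL. On the normalized counts the B16 log2 ratios of these sums were 0.35, −0.08 and −0.83. In B16 CTRL, 4 of the 14 neutrophil markers were at 0 reads, and no neutrophil marker was at 0 in the libraries labelled residual. The part of these cells in the histone ratios was not tested.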

How the data were processed

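The 4 libraries hold RNA of 1 sample per group and were prepared with the Takara SMART-Seq v4 kit per the labels' protocols. Tools listed in the submitters' processing notes are DESeq2, STAR (2.7.3a) and HTSeq (0.11.2), with the build mm10 and no word on what each did. The authors deposited raw counts per gene, normalized counts (a signal scale, equal to the counts divided by 1 size factor per library), their log2 fold change and p-values, in 1 table per model. The authors' p-values come from 1 library per group and were not used. Size factors were 0.766 and 1.31 in B16 (residual, then CTRL) and 0.770 and 1.30 in CT-26.

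Ratios were computed within a model with a pseudocount of 1, and CPM from raw counts over all reads in genes (37166063 to 74879891 per library, so that 1 CPM is 37.2 to 74.9 reads). Intervals are exact Clopper-Pearson 95% intervals. The fit over both models used edgeR 4.0.16 (TMM, filterByExpr, all genes) in R 4.3.3, with DESeq2 1.42.0 as an alternative, and was run on simulated data. The simulated libraries had the same make-up outside the changed genes, unlike these libraries. That run therefore does not show how the fit performs here. Identifiers were matched to GENCODE M21 (99.8%), and promoter windows to RefSeq. A gene was named with its values where it reached 10 CPM in any library or was among the 3 of its class with most reads, which gave 15 genes. Of other lists up to 4 genes with most reads and 6 fixed ones could be named. Hist1h1a, Hist1h1b, Hist1h1t, Hist1h2ae, Hist1h2bb, Hist1h2bg, Hist1h2bh, Hist1h2bj, Hist1h2bk, Hist1h3i, Hist1h4c, Hist1h4h, Hist1h4i, Hist1h4m, Hist1h4n and Hist2h2be fall outside that rule and were chosen after their values were seen. Sums without single genes, other than that of all members without Hist1h1c, were added after the data were seen. The members and the lists were chosen with earlier results of these data known. Of the cell type lists, those whose CPM is not given with the results summed to 231, 528, 667 and 173 CPM for plasma cells, 101, 171, 179 and 149 for dendritic cells, and 32.8, 33.0, 75.8 and 59.9 for progenitors, with the B16 pair first, residual before CTRL. Cd4 stood at 20.9, 17.3, 104 and 3.98 CPM.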

Additional observations from a re-analysis of the deposited data

How the results depend on the processing

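The direction of the sums, the medians and the 30 ratios of named members was recomputed under each alternative, and no called value changed sign. Ratios that were not called did so in B16. With total reads those of Hist1h1d, Hist1h2ac, Hist1h2be, Hist1h3a, Hist1h4d, Hist2h4 and Hist3h2a turned from negative to positive. That of Hist1h2ac did so without haemoglobin genes as well. The summed log2 ratio in B16 was −1.77 and moved to −0.93 with total reads in genes, −1.70 with total reads without haemoglobin genes, −1.83 with TMM factors, −1.50 without Hist1h1c and −1.98 without members that overlap another gene. In CT-26 it was −1.61 and moved to −1.41, −1.57, −0.98 and −1.69 under the same settings other than TMM. The B16 median of −1.12 moved to −0.51 with total reads, −1.37 and −0.70 with pseudocounts of 0.1 and 5, −0.62 with the fold of the authors' deposited table and −1.57 without overlapping members. The CT-26 median of −1.16 moved to −0.97 with total reads, −0.83 with a pseudocount of 5 and −0.83 with the fold of the authors' deposited table.

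In B16, with 2 members higher and 11 lower, the counts were 7 and 6 with total reads, 0 and 3 at a level of 10 CPM, 6 and 31 with no level, and 1 and 6 at a size limit of 2. In CT-26, with 2 higher and 12 lower, they were 0 and 4 at 10 CPM, 6 and 34 with no level, and 0 and 7 at a size limit of 2, and 1 was higher by the fold of the authors' deposited table. Over both models, where edgeR called 0 members and 0 genes with TMM or RLE factors, DESeq2 called 4 members and 1799 genes, edgeR with total reads 1 and 747, and edgeR with no filter 2 and 987. With total reads 18 of the 30 named ratios moved beyond their counting interval, 7 with the fold of the authors' deposited table, without haemoglobin genes 1, and with TMM factors or either pseudocount none. A higher level or size limit leaves fewer genes that can be called, and the cause of the other moves was not tested.

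The labels give no replicate numbers, so no replicate block was fitted, and the fit over both models pairs CTRL with residual through its term for the model. With 1 library per group no library was left out. Depth limits the 39 members in B16 and 42 in CT-26 that stayed below 1 CPM.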
